A study of Mus musculus with 18 samples.

Results

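RNA of the kidney cortex of DBA1 mice was compared with that of 129/svj mice, which are both inbred strains that the study classes as sensitive to nephritis induced by antibodies against the glomerular basement membrane (anti-GBM). The comparison used the 8 arrays of 6 mice, 3 of each strain, out of 18 arrays and 15 mice in all, and the arrays were taken by their strain labels. All mice of both strains were 2 months old and had been challenged with anti-GBM antibodies. Mouse 1 of each strain had a repeat array, which was averaged into its value, so that each value rests on 3 mice per strain. The 3 mice of BALB/C, a strain classed as resistant, were challenged alike and measured in the same table, and they are given where they place a difference. No unchallenged mice were analysed, so strain differences of the healthy kidney and of its reaction to the antibodies cannot be told apart. The sex of the mice and the time after the challenge were not given in the sources used here.

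In anti-GBM nephritis, antibodies bind the collagen of the glomerular basement membrane, and complement and Fc receptors on leukocytes then drive inflammation of the glomerulus, loss of protein into the urine and secondary injury of the tubules. The cortex consists mostly of proximal tubules, which reabsorb glucose, solutes and filtered protein, burn fatty acids and clear drugs and toxins. Within an inbred strain the mice are genetically alike. Whether a difference that recurred in every mouse of a strain was inherited was not tested. Kidney markers were bright: the proximal tubule genes Slc34a1 (the main phosphate carrier) and Lrp2 (megalin, a receptor for filtered protein) had log2 signals between 12.71 and 13.99 in all 6 mice. Slc12a1 of the loop of Henle was as bright, at 13.15 to 13.51. Other proximal tubule genes were dimmer, such as Slc13a3 at 5.49 to 7.93. These genes mark kidney, and whether the samples held cortex alone was not tested. In bulk tissue, fewer cells of a type and less RNA per cell cannot be told apart.

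The 2 sensitive strains differed at probes in similar number and by similar size in both directions. Individual genes of detoxification, lipid handling, glucose uptake and antibody binding were among them, and no theme was tested as a whole. Of 14808 probes tested, 703 (4.75%) passed, by a limma fit with Benjamini-Hochberg adjusted p under 0.05, and 343 of these (2.32%) were higher in DBA1 and 360 (2.43%) in 129/svj. Probes were tested if at least 3 of the 6 mice had a detection p, against negative control beads, of at most 0.05. Without background correction differences were smaller, by a ratio of 0.41 to 0.99 (median 0.65) over the 55 named probes that passed. The absolute log2 difference of the 703 probes ranged from 0.50 to 7.21 with a median of 1.18, whereas over all tested probes the median was 0.17. At 455 of them it was 1 or more, and at 132 it was 2 or more. The values of the 3 DBA1 mice did not overlap those of the 3 129/svj mice at any of the 703 probes, a separation that 17.3% of all tested probes showed. Between the strains the arrays correlated at 0.924 to 0.958 over the tested probes, between different mice of a strain at 0.956 to 0.985, and between repeat arrays of a mouse at 0.989. With 1 probe per named gene, the brightest one tested, 322 of 5949 genes (5.41%) passed, 158 (2.66%) higher in DBA1 and 164 (2.76%) higher in 129/svj.

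**Figure D1:**
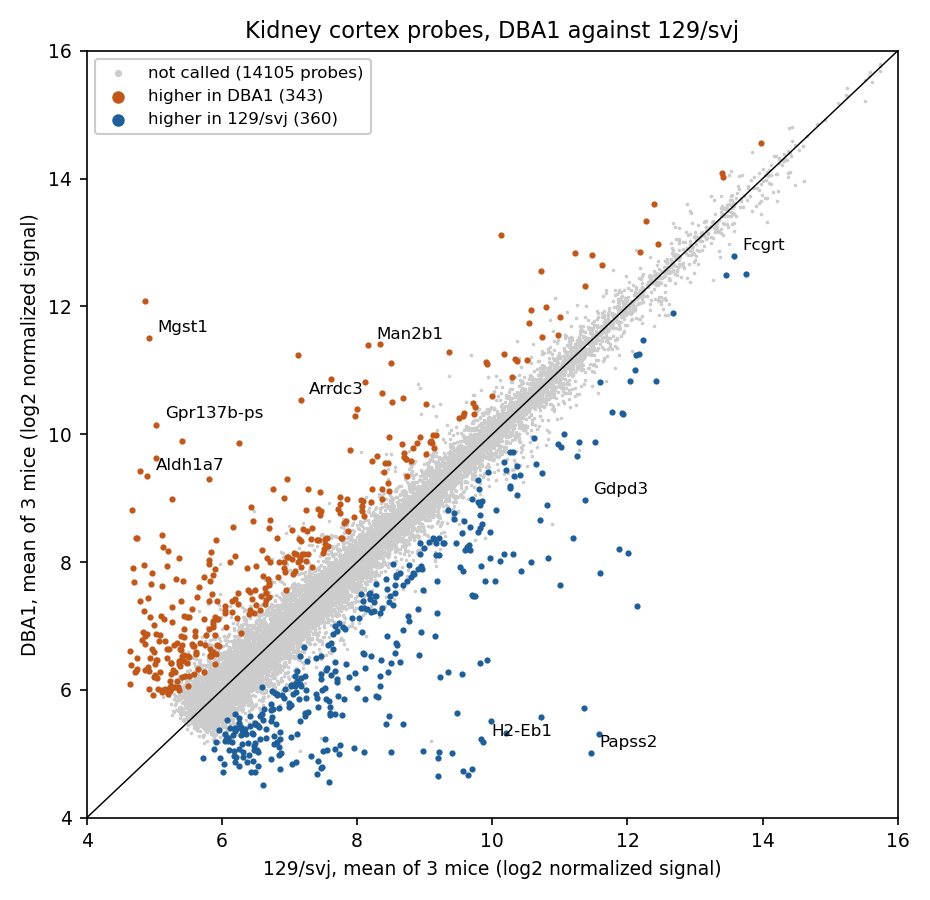
Mean log2 normalized signal of 3 DBA1 mice (vertical axis) against that of 3 129/svj mice (horizontal axis) for the 14808 tested probes. Grey points did not pass the test, orange points (343) were higher in DBA1 and blue points (360) were higher in 129/svj, and the columns of points at the left edge and along the bottom are probes near the background in one strain.

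The largest differences were those of probes with signal above detection throughout one strain and nowhere in the other. There were 105 such probes present in DBA1 only (0.709% of those tested) and 107 present in 129/svj only (0.723%), all past the threshold of the limma fit. Presence was scored by probe, and another probe of the same gene could be detected in both strains. Ttc19, for example, had a probe present in DBA1 only and another with means of 8.90 in DBA1 and 8.79 in 129/svj. Where a gene is named below as present in one strain only or below detection, the probe that was read is meant. A probe below detection has only an upper bound, so the difference is given as at least a number of fold, which sets the mean of the bright strain against the detection floor of the dim strain's arrays (the signal of their dimmest detected probe) or the dim probe itself where it was brighter. This bound had a median of 1.96-fold over the probes present in DBA1 only and of 1.76-fold over those present in 129/svj only, and it reached 4-fold for 20 and 19 of them. The bounds apply to the background correction used here, and under another one a difference can be smaller than its bound. The genes below are those with the largest differences, and their values by mouse are plotted for the genes below detection in a whole strain.

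**Figure D2:**
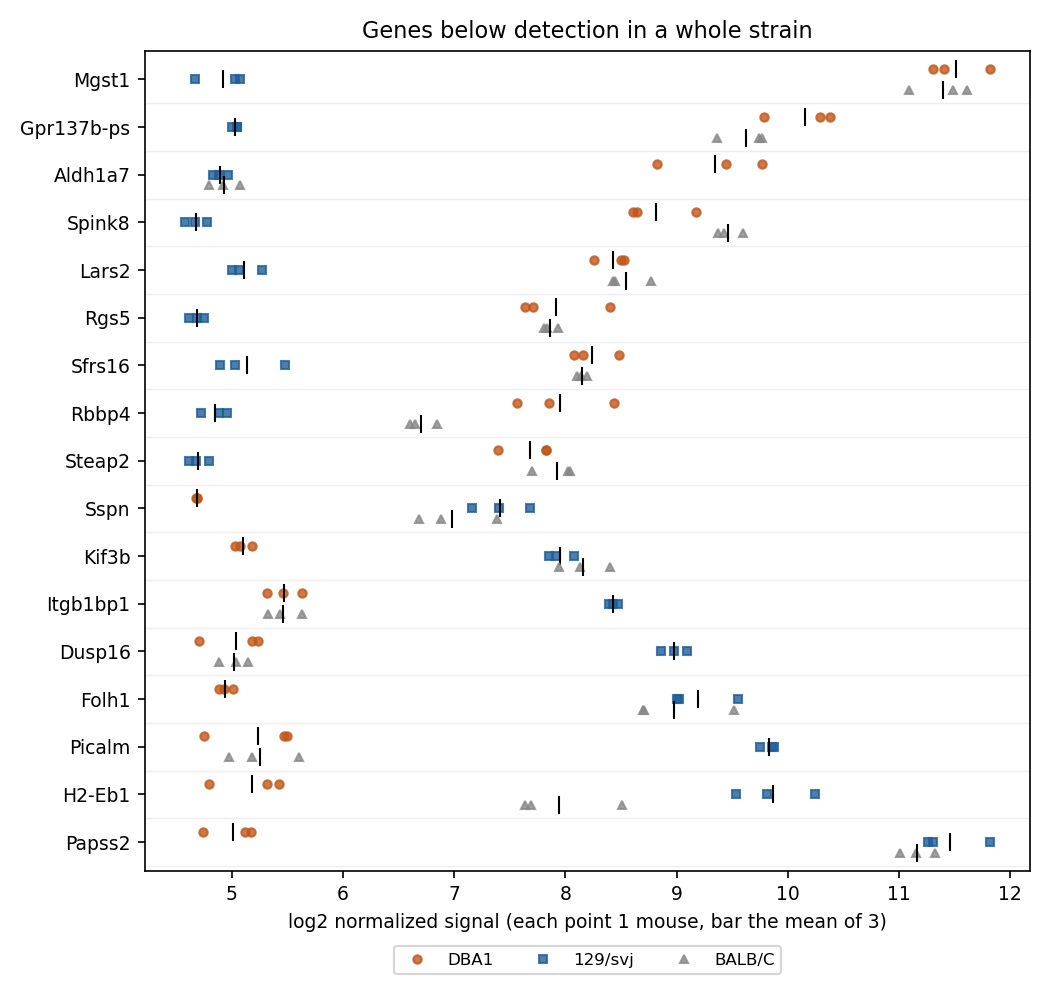
Log2 normalized signal of each mouse (3 per strain, points) with the strain mean (bar) for Mgst1 and the 8 genes with the largest differences in each direction among those whose probe was below detection in a whole strain. DBA1 mice (circles) lie at 7.40 or above for the upper 9 genes and 129/svj mice (squares) at 7.16 or above for the lower 8, while BALB/C mice (triangles) join one or the other.

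The 2 largest bounds among the named genes ran in opposite directions. Mgst1, a glutathione transferase of membranes and 1 of the genes the study picked on these arrays, read 11.41, 11.30 and 11.81 in the DBA1 mice and 5.07, 5.03 and 4.67 in the 129/svj mice, where it was not detected. It was thus at least 57.5-fold higher in DBA1 (adjusted p = 7.68e-08, limma), the largest bound of the named genes. Papss2, which makes the activated sulfate that sulfotransferases use, had the reverse pattern. Its log2 signal was 5.17, 5.12 and 4.74 in DBA1, all below detection, and 11.26, 11.81 and 11.30 in 129/svj, at least 54.9-fold higher in 129/svj (adjusted p = 7.68e-08, limma). BALB/C mice had both genes, with means of 11.40 for Mgst1 and 11.16 for Papss2. Both bounds hold only for the processing used here. The log2 difference of Mgst1 was 6.58 as processed here, 5.51 with a larger normexp offset and 4.65 without background correction. For Papss2 these values were -6.45, -5.42 and -4.54.

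The probe of Aldh1a7, an aldehyde dehydrogenase closely related to the retinaldehyde dehydrogenase Aldh1a1, was detected in DBA1 alone among the 3 strains of the table. The DBA1 mice read 9.44, 9.76 and 8.83, whereas the 129/svj mice read 4.97, 4.84 and 4.89, at least 12.8-fold less (adjusted p = 1.13e-06, limma), and the BALB/C mice were also below detection. For Aldh1a1 itself the difference was 0.37 (SE 0.23, adjusted p = 0.579, limma), with 10.33, 10.38 and 9.47 in DBA1 and 9.61, 9.90 and 9.57 in 129/svj, so the strains overlapped. The 2 genes are similar in sequence, and how far each probe reads both was not tested.

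Of the other genes present in DBA1 only, Gpr137b-ps, a pseudogene named after the lysosomal membrane protein gene Gpr137b, had 10.29, 10.38 and 9.79 in DBA1 and 5.00 to 5.05 in 129/svj, a bound of 22.4-fold. The tested probe of Gpr137b gave a difference of -0.50 (adjusted p = 0.528, limma). Spink8, a Kazal-type protease inhibitor, was 8.61, 8.65 and 9.18 in DBA1, at least 8.86-fold above 129/svj. The remaining genes with the largest differences were Lars2 (the mitochondrial leucyl-tRNA synthetase, at least 6.79-fold), Sfrs16 (a splicing factor now named Clasrp, at least 5.96-fold), Rbbp4 (a histone-binding chromatin protein, at least 4.88-fold), Rgs5 (a regulator of G protein signalling found in pericytes, at least 4.76-fold) and Steap2 (a metalloreductase, at least 4.06-fold). All 3 BALB/C mice had each of these genes except Aldh1a7.

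The other genes present in 129/svj only had varied roles. Folh1, a brush border enzyme that trims glutamate from folates, read 9.0, 9.55 and 9.03 in 129/svj and 4.89 to 5.01 in DBA1, at least 11.4-fold apart (adjusted p = 3.05e-06, limma). Picalm, an adaptor of clathrin-mediated endocytosis, read 9.88, 9.75 and 9.86 in 129/svj and 5.47, 5.50 and 4.75 in DBA1, at least 17.6-fold apart (adjusted p = 1.29e-06, limma). Dusp16, a phosphatase of MAP kinases, was 8.86, 8.97 and 9.10 in 129/svj, at least 9.83-fold above DBA1. Smaller bounds were found for Itgb1bp1 (an integrin-binding protein, 6.61-fold), Kif3b (a kinesin motor, 4.83-fold) and Sspn (sarcospan of the dystrophin complex, 3.33-fold). Picalm, Dusp16 and Itgb1bp1 were below detection in all 3 BALB/C mice as in DBA1, and Papss2, Folh1, Kif3b and Sspn were detected in all of them as in 129/svj.

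BALB/C mice did not side with one of the sensitive strains throughout. Of the 105 probes present in DBA1 only, 51 were detected in all 3 BALB/C mice, 38 in none and 16 in 1 or 2. The corresponding numbers for the 107 probes present in 129/svj only were 53, 43 and 11. Among the 394 probes past the threshold and detected in all 6 mice, the BALB/C mean lay nearer to DBA1 for 93 of the 189 higher in DBA1 and for 87 of the 205 higher in 129/svj. These counts are descriptions with no test.

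Among genes of antigen presentation, the clearest difference in RNA was that of H2-Eb1. The gene encodes the beta chain of the class II molecule I-E, a protein that shows peptides to helper T cells. Only RNA was measured, and whether the strains differ in I-E protein or in presentation was not tested. The log2 signal of H2-Eb1 was 5.42, 5.32 and 4.79 in DBA1, below detection in all 3 mice, and 9.81, 9.53 and 10.24 in 129/svj. It was at least 18.1-fold higher in 129/svj (adjusted p = 4.59e-06, limma), and the BALB/C mice lay between, at 7.69, 7.64 and 8.51. The other 5 class II genes tested did not pass. Cd74, the invariant chain that escorts class II molecules, was 10.70, 10.58 and 11.25 in DBA1 and 11.22, 11.64 and 12.23 in 129/svj, a difference of -0.85 (SE 0.28, adjusted p = 0.156, limma). H2-DMb2, a chain of the peptide-loading molecule H2-DM, was 9.27, 9.32 and 9.14 in DBA1 and 8.81, 8.60 and 9.63 in 129/svj (difference 0.23, SE 0.26), and C2ta, the gene of the class II transactivator, differed by -0.29 (SE 0.21). Over the 6 genes the median difference was -0.17, beside 0.01 over all genes.

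Class II genes are known to share conserved promoter boxes through which the transactivator works, and the stretches before H2-Eb1 and H2-DMb2 are shown because these genes of one family, both on chromosome 17, behaved unlike each other in the strains. The RefSeq promoter table, whose build is GRCm38.p6, holds the reference genome and not those of DBA1 or 129/svj. The 150 bases before the start of H2-Eb1, on the plus strand at chr17:34305717-34305866, and those of H2-DMb2, on the plus strand at chr17:34145099-34145248, are printed 5′ to 3′ with the letters GATGATG and TGATTGG in capitals.
H2-Eb1: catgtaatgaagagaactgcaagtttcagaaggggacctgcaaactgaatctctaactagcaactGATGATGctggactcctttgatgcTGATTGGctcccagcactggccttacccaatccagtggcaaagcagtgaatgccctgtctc
H2-DMb2: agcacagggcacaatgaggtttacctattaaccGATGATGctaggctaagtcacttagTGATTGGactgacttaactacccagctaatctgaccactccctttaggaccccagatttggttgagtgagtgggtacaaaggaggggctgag
In both, GATGATG comes first and TGATTGG follows it. Searched on both strands, GATGATG was held by 1.8% of the 32851 promoters of the table over the same 150 bases, TGATTGG by 5.71%, and both by 0.0974%, and the 2 strings do not overlap in either promoter. The matches describe the reference sequence.

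In the class I list, 1 of 10 genes tested passed on its brightest probe, beside 5.41% of all genes. H2-Q6, a non-classical class I gene, was 6.32, 5.94 and 6.18 in DBA1 and 7.0, 6.90 and 7.44 in 129/svj (difference -0.97, adjusted p = 0.0448, limma). Without any 1 of the 6 mice its adjusted p rose above the threshold, to between 0.0663 and 0.167 (limma). H2-D1, a classical class I gene, read 11.91, 12.01 and 12.46 in DBA1 and 10.76, 10.23 and 11.80 in 129/svj on its brighter probe, a difference of 1.19 (adjusted p = 0.0878, limma), while its other probe passed with 1.36 (adjusted p = 0.0467, limma). Class I genes are near copies of each other, and their probes may share signal.

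Among genes detected in all 6 mice, the largest excess in DBA1 was that of Arrdc3, an arrestin-like adaptor in the turnover of membrane receptors. It read 9.86, 10.33 and 11.43 in DBA1 and 7.39, 7.0 and 7.12 in 129/svj, 10.3-fold higher in DBA1 (log2 difference 3.37, SE 0.33, adjusted p = 0.00018, limma). Man2b1, the lysosomal alpha-mannosidase that breaks down glycoproteins, read 11.34, 11.21 and 11.63 in DBA1 and 8.26, 7.87 and 8.34 in 129/svj, 9.42-fold higher in DBA1 (adjusted p = 3.44e-06, limma). For both genes the gap between the strains exceeded the spread of the mice. Timd2, a membrane receptor that takes up ferritin, was 8.26, 9.46 and 8.85 in DBA1 and 5.86, 5.79 and 7.64 in 129/svj, 5.37-fold higher in DBA1 (adjusted p = 0.0131, limma). Mouse 3 of 129/svj came closest to DBA1, and without it the difference was 3.03. Leaving out mouse 1 or 2 of 129/svj or mouse 2 of DBA1 took the adjusted p of Timd2 to 0.0647, 0.0548 and 0.0582 (limma). By the methods' t-test Timd2 did not pass either (adjusted p = 0.328).

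Further genes were Ipo9 (a nuclear import receptor, 4.26-fold), Clstn1 (calsyntenin, a cargo adaptor of kinesin, 3.71-fold), Mthfd1 (an enzyme of folate metabolism, 3.68-fold) and Pla2g12a (a secreted phospholipase, 3.59-fold), all higher in DBA1. Their adjusted p values in limma lay between 2.37e-05 for Clstn1 and 0.0052 for Pla2g12a. Olfml3, a secreted olfactomedin-like protein (2.96-fold, adjusted p = 0.026, limma), and Scoc, a coiled-coil protein of the Golgi (2.8-fold, adjusted p = 0.0407, limma), were closest to the threshold. Olfml3 lost its call without mouse 1 or 2 of 129/svj or mouse 2 or 3 of DBA1 (adjusted p of 0.0746 to 0.104, limma), and Scoc without any mouse other than mouse 3 of DBA1 (0.0652 to 0.156). The BALB/C mean lay nearer to that of DBA1 in 6 of these 9 genes, and nearer to that of 129/svj in Man2b1, Olfml3 and Scoc. By the methods' t-test Mthfd1, Pla2g12a, Olfml3 and Scoc did not pass (adjusted p of 0.128, 0.225, 0.311 and 0.418).

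**Figure D3:**
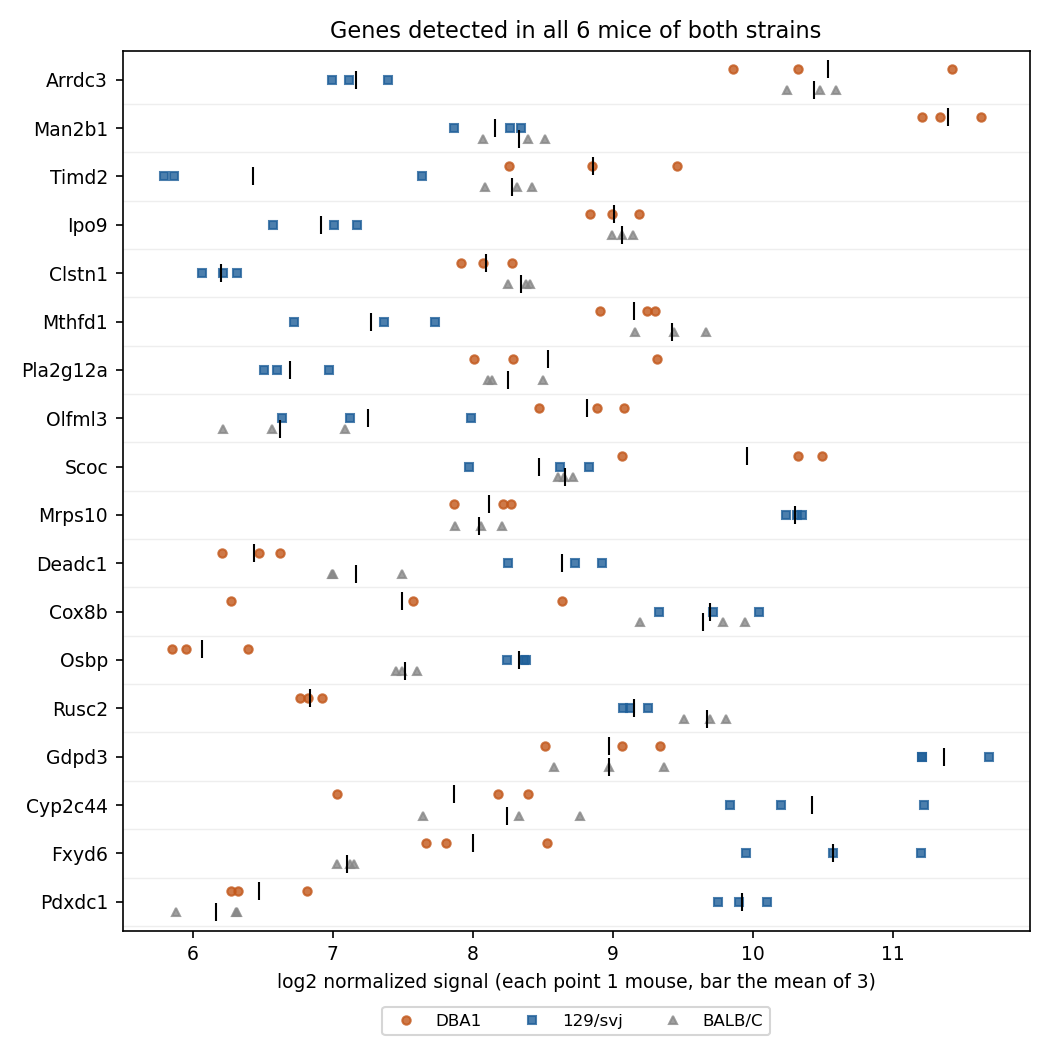
Log2 normalized signal of each mouse (3 per strain, points) with the strain mean (bar) for 9 of the 10 genes with the largest excess in DBA1 (top) and 9 of the 10 with the largest excess in 129/svj (bottom), all detected in the 6 mice of both strains. Circles and squares do not overlap for any gene, as was the case at every probe that passed. The widest spreads are those of Cox8b in DBA1 (6.27 to 8.64) and of Timd2 in 129/svj (5.79 to 7.64).

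Of the genes with the largest excess in 129/svj among those detected in all 6 mice, 3 described here act on lipids. Cyp2c44, a P450 that turns arachidonic acid into epoxides and is now named Cyp2c23, read 8.18, 8.39 and 7.03 in DBA1 and 10.20, 11.23 and 9.84 in 129/svj, 5.87-fold higher in 129/svj (adjusted p = 0.00803, limma). Osbp, a carrier of sterols between membranes, was 4.81-fold higher in 129/svj (adjusted p = 1.54e-05, limma), with 5.85, 5.95 and 6.40 against 8.25, 8.38 and 8.37. Gdpd3, a lysophospholipase of the glycerophosphodiesterase family, was 5.26-fold higher (adjusted p = 0.000365, limma), with 9.07, 9.34 and 8.51 in DBA1 and 11.69, 11.21 and 11.21 in 129/svj. The calls of Cyp2c44 and Gdpd3 were lost by the methods' t-test (adjusted p of 0.232 and 0.0623).

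Fxyd6, a regulatory subunit of the sodium pump, was 7.66, 7.81 and 8.53 in DBA1 and 10.57, 9.95 and 11.21 in 129/svj, 5.97-fold higher in 129/svj (adjusted p = 0.000702, limma). Its call was lost by the methods' t-test (adjusted p = 0.135). Rusc2, a scaffold protein, was among the tightest, with SDs of 0.08 in DBA1 and 0.09 in 129/svj (n = 3 each) and a 4.96-fold higher signal in 129/svj. Mrps10, a protein of the mitochondrial ribosome, was 4.55-fold higher in 129/svj, and Deadc1, a tRNA deaminase now named Adat2, was 4.59-fold higher. Cox8b, the isoform of a cytochrome oxidase subunit known from heart, skeletal muscle and brown fat, read 7.57, 8.64 and 6.27 in DBA1 and 9.72, 9.33 and 10.04 in 129/svj (4.61-fold, adjusted p = 0.0303, limma). Its call was lost without mouse 1 of DBA1, any 1 mouse of 129/svj, or mouse 3 of both (adjusted p of 0.0574 to 0.103, limma), and without mouse 3 of DBA1 the difference was -1.59, against -2.21 with it. Adipoq, a fat cell gene and the 1 gene of the fat and muscle list that was tested, was 5.06, 5.23 and 5.48 in DBA1 and 6.90, 6.86 and 8.65 in 129/svj (difference -2.22, SE 0.84, adjusted p = 0.239, limma). The part of adherent fat or muscle in the difference of Cox8b was not tested.

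Several genes were read by more than 1 tested probe. Of 365 genes with at least 2 tested probes, 40 had at least 1 probe past the threshold. In 6 of the 40 every tested probe passed in the same direction, in 1 gene 2 probes passed alike while another did not, in 30 genes only 1 probe passed, and in 3 genes probes passed in opposite directions. The difference between probes was not tested, and those of H2-D1, for example, lay on either side of the threshold with similar values. Pdxdc1, a decarboxylase-like protein, was 10.9-fold higher in 129/svj on its brightest probe, with 6.27, 6.81 and 6.33 in DBA1 and 9.75, 10.11 and 9.90 in 129/svj. A second probe gave -3.40, and another gave 2.32 the other way, with 8.11, 8.14 and 8.25 in DBA1 and 5.94, 5.67 and 5.92 in 129/svj (adjusted p = 3.44e-06, limma). Rbbp4, besides the probe that was at least 4.88-fold higher in DBA1, had another that was below detection in DBA1 and at least 1.76-fold higher in 129/svj (adjusted p = 0.0123, limma). The latter call was lost with only the 6 compared mice in the fit (adjusted p = 0.0516, limma), with quantiles over their arrays (0.0518) and by the methods' t-test. Haao, which makes the NAD precursor quinolinate from tryptophan, had differences of 0.88 and -0.04 on 2 probes. On another the DBA1 mice read 5.10, 5.78 and 5.09, with 1 of 3 detected, and the 129/svj mice 10.41, 10.42 and 9.80. Since DBA1 was mostly below detection there, the size of the excess in 129/svj depends on the background, with a difference of -4.89 as processed here and -3.19 without background correction.

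A similar case was Slc15a2. The gene, which encodes the high-affinity peptide transporter of the proximal tubule, was 7.79, 7.72 and 7.41 in DBA1 and 10.85, 11.33 and 10.81 in 129/svj on one probe (difference -3.36, SE 0.18), but 11.03, 11.18 and 9.77 against 9.94, 10.50 and 9.62 on its brightest probe (0.64, adjusted p = 0.571, limma). It lies outside the rule for named genes and was named after its values were seen, as were Tgoln1 and Olfm1. These last genes had 2 tested probes each that agreed, all lower in DBA1. For Tgoln1, a protein of the trans-Golgi network, the differences were -1.22 and -0.81, and for Olfm1, a secreted olfactomedin, -0.89 and -1.02. The sequences of the probes were not used here, and which transcripts or alleles each probe reads was not tested.

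Of the 17 probes of redox genes that the study picked from these arrays, 4 passed, 3 higher in DBA1 and 1 higher in 129/svj, beside 4.75% of all tested probes. The study chose them for differences between resistant and sensitive strains on the same arrays, so their number is not independent evidence. Besides Mgst1, Alox12, a lipoxygenase that oxidizes arachidonic acid, read 10.08, 9.54 and 9.64 in DBA1 and 7.91, 8.21 and 7.57 in 129/svj, 3.62-fold higher in DBA1 (adjusted p = 0.000386, limma). The call of Alox12 was lost by the methods' t-test (adjusted p = 0.0789). Fmo4, a flavin-containing monooxygenase, read 5.90, 5.17 and 5.69 in DBA1, detected in 2 of 3 mice, and 8.44, 8.39 and 8.60 in 129/svj, 7.4-fold higher in 129/svj (log2 difference -2.89, adjusted p = 7.08e-06, limma). Its difference was -1.59 without background correction. The Haao probe that the study listed was higher in DBA1 by 0.88 (adjusted p = 0.0485, limma), a call that was lost without mouse 1 or 2 of DBA1 or mouse 1 or 3 of 129/svj (adjusted p of 0.11 to 0.167). The 3 probes of Gstm2, the glutathione transferase on which the study centred, differed by -0.18, -0.41 and -0.39 and did not pass (adjusted p of 0.67, 0.289 and 0.204, limma), although the last passed with mouse 3 of both strains left out (-0.57, adjusted p = 0.0423, limma). Both probes of Nosip, which binds nitric oxide synthase, were just outside, with -0.65 and -0.90 (adjusted p of 0.0568 and 0.0736, limma), and passed without mouse 3 of DBA1 (0.0327 and 0.00796) and without background correction (0.0256 and 0.0467). The first also passed with a larger normexp offset, scaling to the 75th percentile or an intensity trend (0.0374, 0.0483 and 0.0453), and the second with mouse 3 of both strains left out (0.0188). The 8 probes of Oxr1, Atox1, Mt1, Mt2, Cyp51, Cyp4b1 (annotated as LOC631037 in the deposited table), Aldh1a1 and Sod3 had differences between -0.38 and 0.71, and none passed, although Aldh1a1 did without mouse 3 of DBA1 (0.66, adjusted p = 0.0314, limma).

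Glucose carriers of the proximal tubule moved in opposite directions. Slc5a2, the high-capacity glucose carrier SGLT2 of the early tubule, was 11.62, 10.75 and 11.02 in DBA1 and 10.26, 9.62 and 9.83 in 129/svj, 2.34-fold higher in DBA1 (log2 difference 1.23, SE 0.24, adjusted p = 0.0135, limma). The call was lost without mouse 2 of 129/svj or mouse 3 of both strains (adjusted p of 0.057 and 0.0551, limma), with only the 6 compared mice in the fit (0.0521), with quantiles over their arrays (0.0514) and by the methods' t-test. Slc5a1, the high-affinity carrier SGLT1 of the late tubule, was 6.94, 6.76 and 6.51 in DBA1 and 8.59, 8.79 and 8.37 in 129/svj, 3.6-fold higher in 129/svj (log2 difference -1.85, SE 0.22, adjusted p = 0.000748, limma). These were the 2 genes of 15 tested in the proximal tubule list that passed, beside 5.41% of all genes, and the median of the list was 0.09. Among 8 tested transporters of organic ions and the ABC family, the export pumps Abcc3 and Abcc2 passed, beside 5.41% of all genes, again in opposite directions. Both calls were lost by the methods' t-test (adjusted p of 0.162 and 0.172). Abcc3 had 10.02, 10.07 and 9.53 in DBA1 and 8.97, 8.96 and 8.75 in 129/svj (1.97-fold higher in DBA1, adjusted p = 0.00971, limma), and Abcc2 had 8.89, 9.03 and 8.76 against 9.78, 9.55 and 10.13 (1.91-fold higher in 129/svj, adjusted p = 0.00831, limma).

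In fatty acid oxidation and the peroxisome, 2 of 20 genes tested passed, both lower in DBA1, beside 5.41% of all genes. Of the 20 differences 16 were negative, beside 48.1% of those of all genes. The median difference was -0.38, beside 0.01 over all genes. Acaa2, the last enzyme of mitochondrial beta-oxidation, was among those that passed, with 10.29, 9.80 and 9.53 in DBA1 and 11.39, 11.37 and 11.09 in 129/svj (2.66-fold higher in 129/svj, adjusted p = 0.00225, limma). The call of Acaa2 was lost by the methods' t-test (adjusted p = 0.13). Decr2, a peroxisomal reductase of unsaturated fatty acids, was just outside with -1.04 (adjusted p = 0.0546, limma), and Pdk4, a kinase that spares glucose when fat is burnt, had -1.52 with wide spread (SE 0.49). The mean log2 signal of the 20 genes was 9.01, 9.0 and 8.78 in the DBA1 mice and 9.41, 9.51 and 9.43 in the 129/svj mice. Of 28 respiratory chain subunits tested, 1 passed, beside 5.41% of all genes. It was Ndufb8 of complex I, at 1.47-fold higher in 129/svj (adjusted p = 0.0407, limma). Its adjusted p rose to between 0.0781 and 0.143 without any mouse other than mouse 3 of 129/svj. With the mouse number as a block the calls of Ndufb8 and H2-Q6 were also lost (adjusted p of 0.06 and 0.087, limma), as was that of Agtrap, described with the next genes (0.0517).

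Through Fc receptors bound antibody acts on leukocytes and is handled by the kidney. In the list of Fc receptors and immune complex signalling 2 of 5 genes tested passed, beside 5.41% of all genes, both of them among its 3 receptors, and the signalling genes Ptpn6 and Lcp2 differed by -0.14 and 0.01. Fcgr2b, the inhibitory receptor for IgG complexes on macrophages and B cells, was 8.97, 8.99 and 8.75 in DBA1 and 7.77, 7.69 and 7.80 in 129/svj, 2.22-fold higher in DBA1 (log2 difference 1.15, SE 0.13, adjusted p = 0.000417, limma). Fcgrt, the neonatal Fc receptor that recycles IgG and albumin in podocytes and tubules, was 12.79, 12.71 and 12.86 in DBA1 and 13.68, 13.47 and 13.59 in 129/svj, 1.73-fold higher in 129/svj (adjusted p = 0.00354, limma). The activating receptor Fcgr3 differed by 0.08 (SE 0.37). Fcgr2b was the 1 of 9 tested macrophage genes that passed, and the others differed by values from -0.07 for Cd68 to 1.68 for Cd14 (SE 0.54, adjusted p = 0.15, limma). In the renin-angiotensin list 1 of 6 genes passed, beside the same 5.41%. Agtrap, which binds the angiotensin receptor, was 1.78-fold higher in 129/svj (adjusted p = 0.0253, limma), a call lost without mouse 1 or 2 of either strain (adjusted p of 0.0781 to 0.106, limma).

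**Figure D4:**
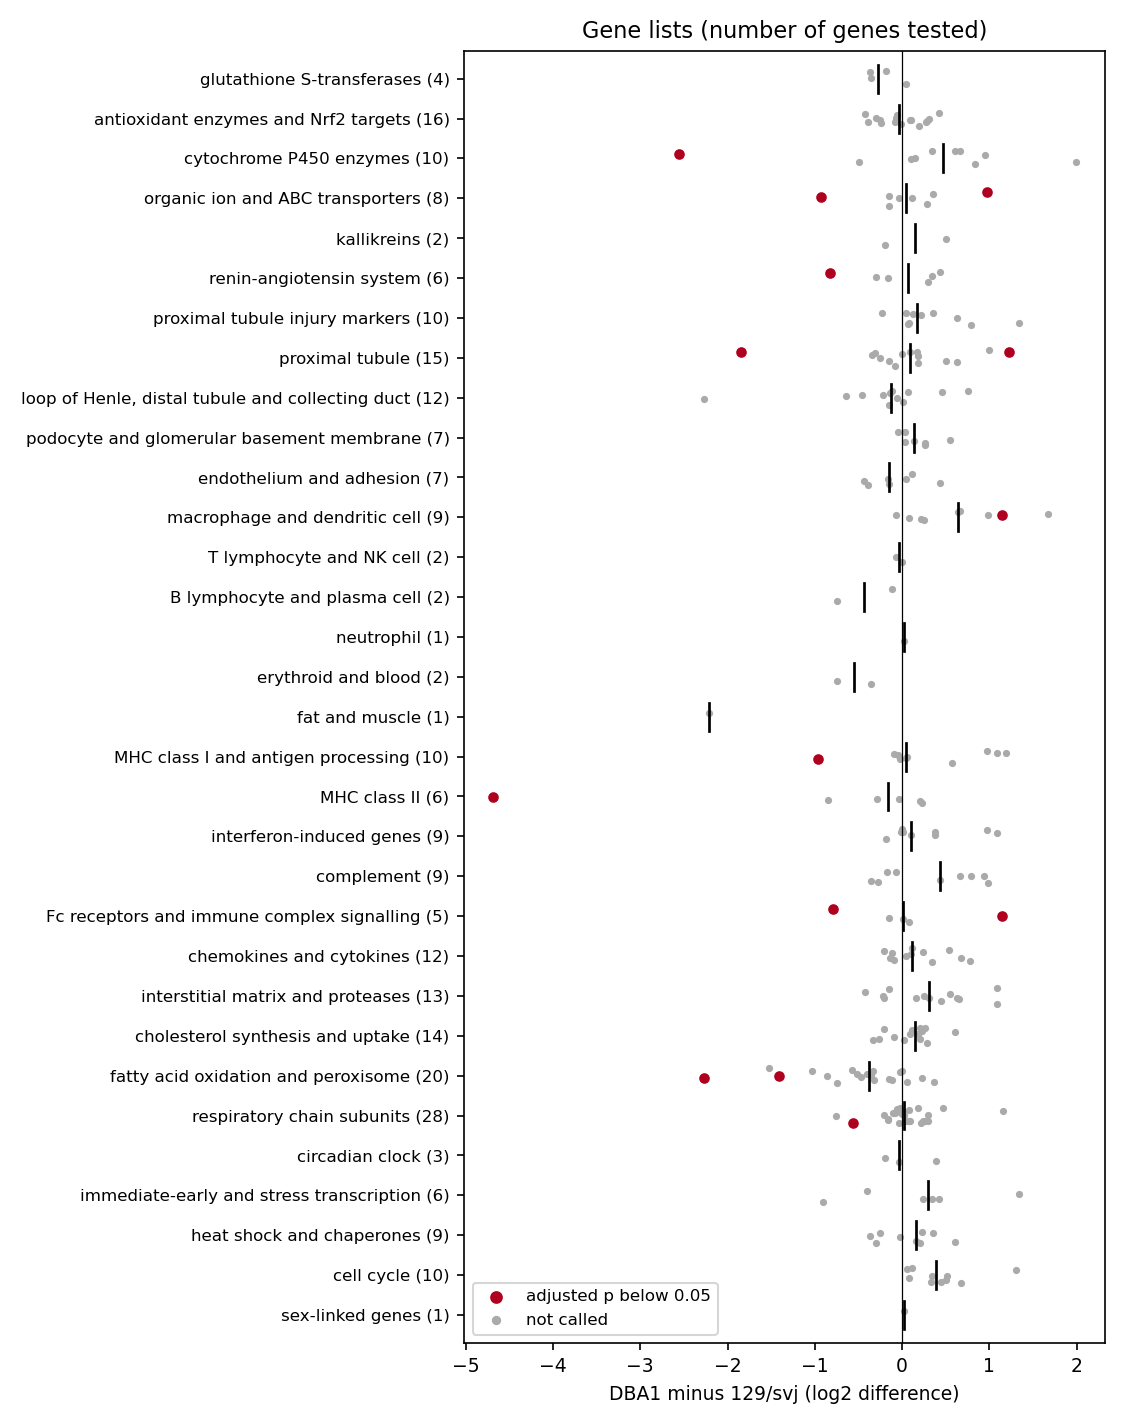
Log2 difference, DBA1 minus 129/svj, of the brightest tested probe of each gene in 32 gene lists (rows, number of genes tested in brackets). Red points passed an adjusted p below 0.05, grey points did not, the bar is the median of a list, and the vertical spread of points within a row has no meaning.

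Calls between the 2 sensitive strains were absent from 11 of the lists of genes that mark inflammation and injury in nephritis. They were present in the macrophage list (1 of 9 genes) and the Fc receptor list (2 of 5). The class I (1 of 10) and class II (1 of 6) lists also held calls, and none of these lists is counted below. The 0 in the count below thus follows from leaving these lists out, and no smaller share among nephritis genes can be read from it. In 11 lists, of tubule injury markers, complement, chemokines and cytokines, interferon-induced genes, matrix and proteases, podocyte and basement membrane, endothelium, cell cycle, T cells, B cells and neutrophils, 0 of 79 genes tested passed in limma, beside 5.41% of all genes. At an unadjusted p below 0.05 there were 8 of the 79 in limma, beside 14.9% of all genes, and 0 by the methods' t-test, adjusted or not. The median difference of the 79 genes was 0.12, with 55 of them positive, beside 51.9% of all genes. Of the lymphocyte and neutrophil genes only 5 were tested, so these cells were hardly measured. The 7 podocyte and basement membrane genes differed by values between -0.05 for Synpo and 0.55 for Lamc1. That a gene did not pass does not show equal levels, since the mice of a strain spread widely in several of these lists.

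The mice of a strain differed among themselves in some of these genes. For the fibrinogen chain Fga, which injured tubules make, the DBA1 mice read 9.60, 10.65 and 12.80 and the 129/svj mice 10.24, 9.78 and 11.94. The complement component C3 read 11.89, 12.51 and 13.32 in DBA1 and 11.42, 11.06 and 12.86 in 129/svj. In both genes mouse 3 was highest in each strain and the strains overlapped. The mean of the 10 injury markers was 8.11, 8.76 and 8.97 in DBA1 and 8.03, 7.66 and 9.13 in 129/svj. For the macrophage list the means were 8.19, 8.51 and 8.56 in DBA1 and 7.66, 7.16 and 8.57 in 129/svj, so mice 1 and 2 of 129/svj lay below all DBA1 mice and mouse 3 did not. Over all tested probes, 91 were at least 1 higher on the log2 scale in mouse 3 than in the mean of mice 1 and 2 in both strains, 61 were at least 1 lower in both, and 5 went opposite ways. The same counts were 3, 8 and 0 for mouse 1 and 3, 13 and 7 for mouse 2 against the others. With mouse 3 of both strains left out, a setting added after seeing the data, 909 probes passed in place of 703, 467 of them higher in DBA1.

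**Figure D5:**
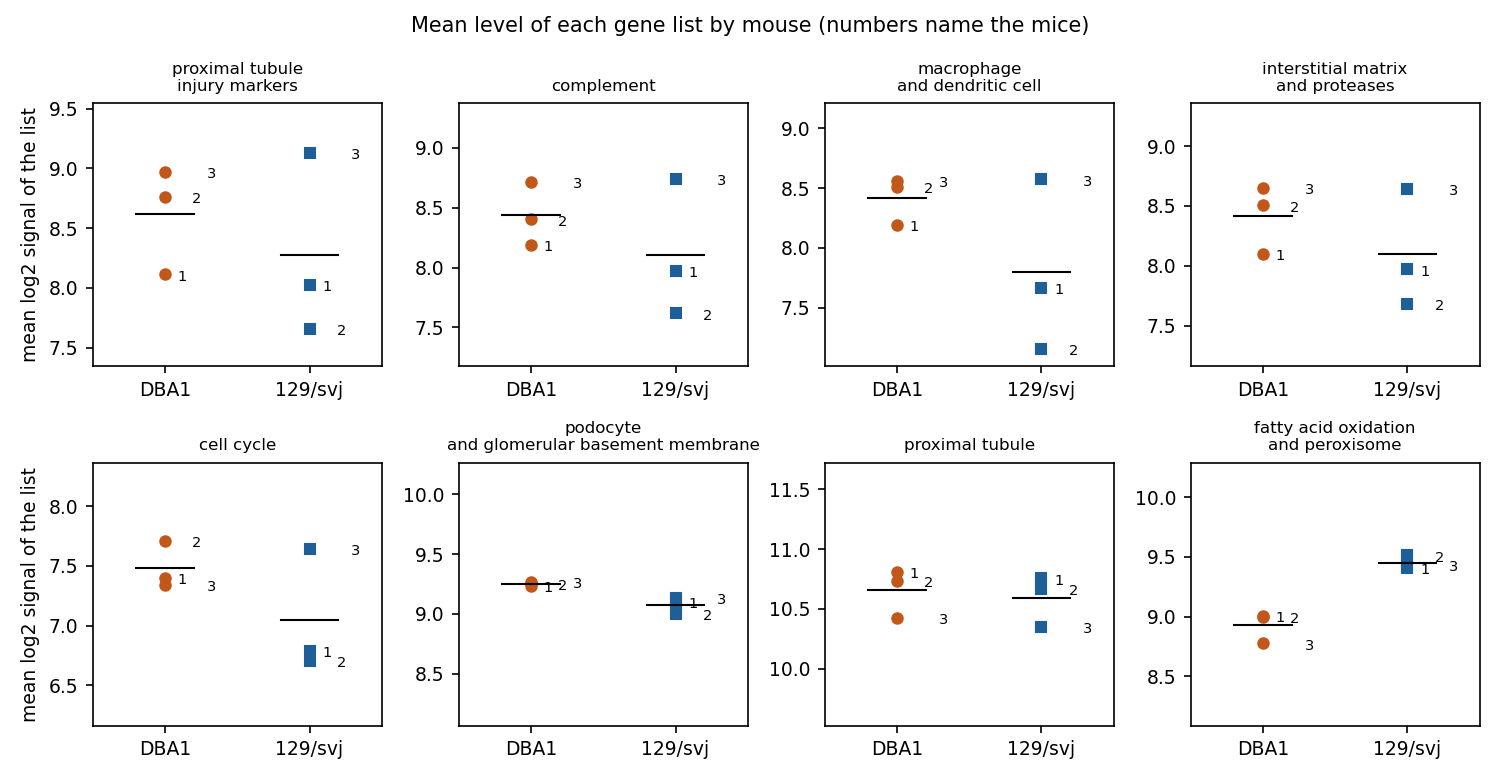
Mean log2 normalized signal of the tested genes of 8 gene lists in each mouse of DBA1 (circles) and 129/svj (squares), with mouse numbers beside the points and the strain mean as a bar. Every panel spans the same range on the log2 scale, and mouse 3 of 129/svj is the highest of its strain for injury markers, complement, macrophage, matrix and cell cycle genes, whereas the podocyte and the fatty acid oxidation lists have no overlap of the strains.

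The remaining lists gave few or no calls, where 5.41% of all genes passed. The glutathione transferase list held 4 tested genes, Gsta3, Gstm7, Gstt2 and Gstcd. Mgst1, which passed, and Gstm2 were counted with the study's redox probes instead. None of the 4 genes, 16 antioxidant enzymes and Nrf2 targets, 14 cholesterol genes, 9 heat shock genes or 12 distal nephron genes passed in limma. At an unadjusted p below 0.05 there were 0, 1, 0, 1 and 2, beside 14.9% of all genes. None of these passed the methods' t-test after adjustment, and 0, 2, 0, 2 and 0 did without it, beside 231 and 1715 of all 14808 probes. No gene passed either among 2 kallikreins, 2 blood genes, 3 clock genes or 6 immediate-early and stress genes, where 1, 1, 0 and 1 had an unadjusted p below 0.05 in limma and 0 by the methods' t-test. Among the P450 enzymes Cyp2c44 was the 1 of 10 that passed, and Cyp7b1, a sterol hydroxylase, came next in size, with 6.65, 8.85 and 8.40 in DBA1 and 5.30, 6.54 and 6.09 in 129/svj (1.99, SE 0.50, adjusted p = 0.0572, limma).

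The differences were spread over the genome. Of 3283 tested genes with a chromosome in the deposited annotation, 164 (5%) passed. By chromosome the share ranged from 0 of 84 genes on X and 1.74% on chromosome 14 to 8.33% on chromosomes 1 and 19. On X 8 genes had an unadjusted p below 0.05 in limma, beside 14.9% of all genes. By the methods' t-test there were 6, beside 1715 of all 14808 probes. Of the 11 genes that passed on chromosome 19, 10 were lower in DBA1, among them Papss2, Cyp2c44, Osbp, Abcc2 and Ndufb8, and Aldh1a7 was the 1 that was higher. No test of this distribution was made.

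About as many probes passed without a gene symbol (349) as with 1 (354). The largest differences among those without a symbol that were detected in all 6 mice were as large as those of the named genes. Probe scl44314.9.1_18-S was 11.24 ± 0.37 in DBA1 and 7.12 ± 1.54 in 129/svj (SD, n = 3 each; adjusted p = 0.00252, limma), and probe scl52683.7_281-S was 7.31 ± 0.41 in DBA1 and 12.14 ± 0.20 in 129/svj (adjusted p = 7.3e-07, limma). Their genes were not named from the tables used here.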

How the data were processed

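RNA of the kidney cortex had been labelled and read on Illumina Mouse WG-6 v1 BeadChips with BeadStudio, as the series describes. The authors deposited signal intensities without normalization and detection p-values against negative control beads. From the table of BALB/C, DBA1 and 129/svj (46147 probes on 12 arrays), intensities were corrected by normexp with the help of those p-values (offset 16), made equal in distribution over the arrays by quantiles, taken to log2 and averaged over repeat arrays. The array median intensity was 118 to 148 over the 8 arrays compared, with 31.1% to 34.1% of probes detected, and the number of mice limits the precision. Detection p of a repeated mouse was the mean of both arrays. The limma 3.58.1 fit (R 4.3.3) had 1 coefficient per strain over 9 mice, with Benjamini-Hochberg adjustment over all 14808 probes. P-values set the difference of the strain means against the spread between mice of a strain. That spread was estimated over all 9 mice, BALB/C included, and drawn partly from all tested probes. Symbols, from the search key of the other table (Python 3.11.15, pandas 2.3.3), covered 23087 probes. Of the 5949 tested genes, 4599 matched RefSeq.

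Named genes were, among symbols that are no clone or predicted names and on the brightest probe, the 10 largest differences each way detected in all 6 mice, the 8 largest each way among genes below detection in a strain, up to 4 passing genes per list, the study's redox probes, and further probes of these genes. Some genes of these sets are not reported here. Although the arrays were taken by label, the members and lists were chosen with earlier results of these data known. Deviations from strain means correlated at 0.20, 0.10 and 0.39 between mice of the same number, which the rule applied here counts as paired. However, DBA1 mouse 1 correlated more with 129/svj mouse 2 (0.36), and DBA1 mouse 2 slightly more with 129/svj mouse 1 (0.11). No label ties the numbers to a litter or day. Alternatives covered background, normalization, filter, repeat arrays, mice in the fit, trend, block, the methods' t-test, size and each mouse left out.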

Additional observations from a re-analysis of the deposited data

How the results depend on the processing

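The count of 703 probes stayed within 1.5 times under 9 of the alternatives set at the start (514 to 735), 683 of them with the replicate number as a block, and between 490 and 791 with each mouse left out, 229 to 392 of them higher in DBA1 and 261 to 404 higher in 129/svj. It moved to 368 (173 higher in DBA1, 195 higher in 129/svj) when probes had to be detected in all 6 mice, to 455 (211 higher in DBA1) with a log2 difference of at least 1, and to 231 (107 and 124) by the methods' t-test with adjustment or 1715 (868 and 847) without. The filters count fewer probes by construction, and for the t-test the cause was not tested. Probes present in DBA1 only went from 105 to 30, and those present in 129/svj only from 107 to 33, with a log2 difference of at least 2. They were 83 to 139 and 86 to 119 with each mouse left out. Counting every tested probe, 2 class I probes passed in place of 1. Of 55 named probes past the threshold, 32 stayed past it under every alternative run, and none changed direction. The other 23 did not pass the methods' t-test after adjustment, and 12 of them passed under every other alternative. The block changed the calls of Agtrap, H2-Q6 and Ndufb8 and no other call of a passing named probe. Direction turned for 2 probes that did not pass. Mt2, at 0.25, gave -0.16 without mouse 2 of 129/svj and -0.10 without mouse 3 of DBA1, and -0.16 to 0.78 over all mice left out in turn. The Haao probe that did not pass, at -0.04, gave 0.11 and 0.22 without the same mice (-0.27 to 0.22 over all), 0.0215 with the first array of mouse 1 only and 0.0636 without mouse 3 of both strains, a setting added after seeing the data. The size of a difference depended most on the background: 33 of the 55 named probes moved by over 1.5 times without its correction, all toward 0, and 19 with a larger normexp offset. Osbp went from -2.27 to -1.29, Clstn1 from 1.89 to 1.06, Deadc1 from -2.20 to -1.37, Rusc2 from -2.31 to -1.59 and the brightest Pdxdc1 probe from -3.45 to -2.43. Fitting only the 6 compared mice lost the calls of Agtrap, Cox8b, Ndufb8, Olfml3, Scoc, Slc5a2, the Haao probe of the study and the second Rbbp4 probe (adjusted p of 0.0516 to 0.136).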
